A study of Mus musculus with 15 samples.

Results

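The 10 genes described here encode proteins that sense, remove or act beside the lipid messenger diacylglycerol. They are *Rasgrp1*, the protein kinase C (PKC) genes *Prkch*, *Prkcq*, *Prkca*, *Prkcb* and *Prkcd*, the diacylglycerol kinase genes *Dgka* and *Dgkz*, and the Ras regulators *Sos1* and *Nf1*. They were chosen by name, as the gene family around *Prkch* and *Rasgrp1*, and all 10 are among the 12545 genes for which expression values were deposited. *Prkch* and *Rasgrp1* had been picked by the study on these same lines, so a difference in either, or in a ratio built on either, is not independent of that choice.

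RNA-sequencing was performed on 15 T cell leukemia lines from the thymus of FVB/NJ mice, with 1 library per line and no treatment. The 8 DKO lines had the genotype E2a-/-LefF/F LckCre+. Cre under the *Lck* promoter, active from an early thymocyte stage, deletes the floxed part of *Lef1*, which encodes its DNA binding domain. The 7 E2a-/- lines are labelled with no change to *Lef1*. Both groups lack E2A, and no wild type cells were compared. By the labels, the floxed *Lef1* alleles and the Cre transgene differ together between the groups, so their effects cannot be told apart. Each line was grown out from the thymus of a moribund mouse and had been kept in culture for weeks, so the lines are separate leukemias and the spread between lines is the spread between leukemias.

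When the T cell receptor is engaged, phospholipase C-γ1 cleaves a membrane phospholipid and releases diacylglycerol. RasGRP1, an exchange factor that loads Ras with GTP, binds diacylglycerol through a C1 domain, and so do the PKC isoforms α, β, δ, ε, η and θ, whereas the atypical PKC isoforms do not respond to it. Diacylglycerol kinases end the signal by converting the lipid to phosphatidic acid. SOS1 is the other main exchange factor for Ras in T cells and is recruited through adaptor proteins, and NF1 switches Ras off by stimulating its GTPase activity. PKC-θ, the product of *Prkcq*, is the isoform best known in T cells for activating NF-kB, and RasGRP1 is required for thymocyte selection and is a known oncogene of mouse T cell leukemia.

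Values are CPM, the read count of a gene scaled to the total of the reads assigned to genes in the same line. Between 4847970 and 21681586 reads per line fell on the listed genes, and 3 reads, taken as the detection floor, are worth 0.138 to 0.618 CPM. *Lef1* was between 103 and 210.2 CPM in the DKO lines and between 668 and 1558 CPM in 6 of the 7 E2a-/- lines, but at 59.0 CPM in the library labelled SKO132, also E2a-/-, which is below every DKO line. *Tcf3*, the E2A gene, was at 117 to 218 CPM in the DKO group and 151 to 243 CPM in the E2a-/- group, and 1 value per gene does not show whether a part of the gene is deleted. Of the T lineage markers, 10 of 10 were listed, and they summed to 2915 to 4870.2 CPM in DKO lines and to between 2051 and 4619 CPM in the others. None of 6 B cell and none of 6 erythroid markers was listed, and the 3 listed of 7 myeloid markers summed to at most 18.9 CPM. The 3 listed of 6 stromal markers, *Col1a2*, *Pdgfrb* and *Pdgfra*, summed to between 93.5 and 1113 CPM in DKO lines and between 56.3 and 580.2 CPM in the others, the 1 listed of 3 endothelial markers, *Pecam1*, was at 44.9 to 157.4 CPM, and the 2 listed of 4 NK cell markers summed to at most 30.9 CPM. Their part in the results was not tested. In bulk samples, fewer cells of a type and less RNA per cell cannot be told apart.

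Within the family, *Prkch* stood out as the gene that separated the genotypes, and *Rasgrp1* was higher in most DKO lines but with a spread so wide that it did not pass the test across all genes. The other 8 genes were not called, although *Prkca* tended to be lower in DKO lines. Values were compared as log2(CPM + 1) with limma, p-values were adjusted over all 12545 genes by the Benjamini-Hochberg method, and genes were called at the study's threshold, an adjusted p under 0.01. Only the threshold is the study's. The study applied it to edgeR statistics and named both *Prkch* and *Rasgrp1* among the genes increased in DKO lines. By microarray, in an established E2a-/- leukemia with floxed *Lef1*, the study reported lower *Rasgrp1* after Cre deleted *Lef1*. Of the 10 genes, 1 was called, *Prkch*, where 0.0478% of all genes were. At an unadjusted p under 0.05 there were 3, *Prkch* and *Rasgrp1* higher and *Prkca* lower in DKO lines, where 10.2% of all genes were below that value. The count tests on recovered reads each called 1 of the 10, again *Prkch*, where DESeq2 called 1.41% of all genes and edgeR's quasi-likelihood test called 0.00797%, which is *Prkch* alone. The DKO and E2a-/- lines did not overlap for 1 of the 10, again *Prkch*, against 0.175% of all genes. Of the 10 genes, 4 had a log2 fold change above 0 and 6 below, with a median of -0.11, beside a median of -0.019 over all listed genes.

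**Figure D1:**
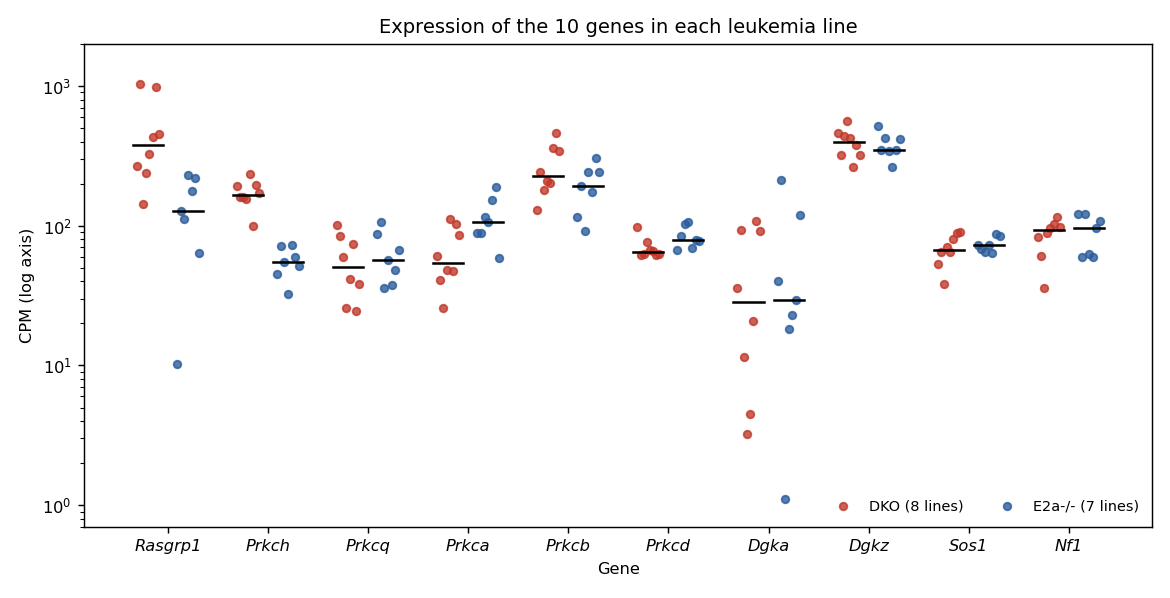
CPM of the 10 genes on a log axis, with a point for each of the 8 DKO (red) and 7 E2a-/- (blue) lines and a black line at the median of the group. *Prkch* is the gene whose groups do not overlap (100.2 to 234 against 32.6 to 72.4 CPM), *Rasgrp1* has a single E2a-/- line at 10.3 CPM, and *Dgka* is spread from 1.10 to 214 CPM with no separation of the groups.

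*Rasgrp1* (ENSMUSG00000027347, chr2:117279993-117343001, minus strand, GRCm38) encodes the Ras exchange factor that diacylglycerol recruits. In DKO lines its lowest, median and highest levels were 144, 378 and 1028 CPM, and in E2a-/- lines they were 10.3, 128 and 231 CPM. In 7 of the 8 DKO lines *Rasgrp1* exceeded every E2a-/- line, the exception being DKO170.2 at 144 CPM, which lay below SKO137.1, SKO186.5 and SKO156.6. DKO192.3 at 240 CPM was nearly level with SKO137.1 at 231 CPM. The highest levels belonged to DKO102.4 at 1028 CPM and DKO713 at 991 CPM, and the next line, DKOTu3, was at 453 CPM. On average there were 485 ± 339 CPM in DKO (SD, n = 8) and 134 ± 80.8 CPM in E2a-/- lines (SD, n = 7). The log2 fold change was 1.996 (SE 0.60, 95% interval 0.72 to 3.27, limma adjusted p = 0.241), and an exact permutation test (two-sided, all 6435 divisions of the 15 lines into 8 and 7) gave p = 0.00295. By limma's p *Rasgrp1* was in place 236 of all genes, and by log2 fold change in place 87 from the top. DESeq2 gave an adjusted p of 0.0143 and edgeR 0.199. SKO95, at 10.3 CPM, widened the spread of the E2a-/- group, and without it the log2 fold change was 1.47 with a limma adjusted p of 0.216.

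*Prkch* (ENSMUSG00000021108, chr12:73584796-73778185, plus strand, GRCm38) encodes PKC-η, an isoform that needs diacylglycerol but not calcium. Its lowest, median and highest levels were 100.2, 166 and 234 CPM in DKO lines and 32.6, 55.0 and 72.4 CPM in E2a-/- lines. All 8 DKO lines lay above all 7 E2a-/- lines, and the gap ran from SKO156.6 at 72.4 CPM to DKO548 at 100.2 CPM. The levels were far more even than those of *Rasgrp1*, with the highest line 2.34 times the lowest in DKO and 2.22 times in E2a-/- lines, where *Rasgrp1* spanned 7.14 and 22.5 times. With 171 ± 38.9 CPM in DKO (SD, n = 8) and 55.4 ± 14.3 CPM in E2a-/- lines (SD, n = 7), the log2 fold change was 1.62 (SE 0.18, 95% interval 1.23 to 2.01), which is 3.07-fold on the log2(CPM + 1) scale. The limma adjusted p was 0.00137, that of DESeq2 5.89e-14 and that of edgeR 0.00308. The exact permutation p of 0.000155 is the smallest that groups of 8 and 7 can give. In the library labelled SKO132, whose *Lef1* level was that of a DKO line or lower, *Prkch* was at 55.0 CPM, the median of the E2a-/- lines. As 1 value per gene does not show whether the DNA binding domain of *Lef1* is deleted, the *Lef1* level does not make SKO132 equal to a DKO line.

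None of the other diacylglycerol-responsive PKC genes was called. *Prkca* (chromosome 11), the calcium-dependent isoform PKC-α, had lowest, median and highest levels of 25.7, 54.3 and 112 CPM in DKO lines and 58.3, 106 and 189 CPM in E2a-/- lines. In 4 of the 8 DKO lines it was below every E2a-/- line, and the log2 fold change of -0.85 (SE 0.31, 95% interval -1.51 to -0.20) had an unadjusted limma p of 0.0144 and an adjusted one of 0.355, and the exact permutation test gave 0.0247. *Prkcb* (chromosome 7), which encodes PKC-β, known from B cell receptor signaling, was at 129, 226 and 459.8 CPM in DKO and 92.3, 192.5 and 303 CPM in E2a-/- lines. The log2 fold change of *Prkcb* was 0.44 (SE 0.29, 95% interval -0.18 to 1.06, limma adjusted p = 0.631), and 3 DKO lines exceeded the E2a-/- range.

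*Prkcq* (chromosome 2), the isoform of the immunological synapse, had lowest, median and highest levels of 24.6, 50.8 and 101 CPM in DKO and 35.6, 57.0 and 106 CPM in E2a-/- lines. The ranges covered each other almost fully, and the log2 fold change was -0.22 (SE 0.33, 95% interval -0.92 to 0.48, limma adjusted p = 0.850). *Prkcd* (chromosome 14), a calcium-independent isoform known for its role in cell death, had the narrowest spread of the PKC genes. Its levels were 62.0, 64.4 and 98.1 CPM in DKO and 66.8, 79.5 and 106 CPM in E2a-/- lines, and the log2 fold change was -0.26 (SE 0.13, 95% interval -0.53 to 0.0036, limma adjusted p = 0.503). Of the DKO lines, 6 were below every E2a-/- line for *Prkcd*, but DKO241 at 66.79 CPM and DKO548 at 66.42 CPM were nearly level with SKO95 at 66.81 CPM. The E2a-/- lines with the highest *Prkcd*, SKO137.1 and the library labelled SKO132, were also the ones whose chromosome 14 genes were raised as a whole, by 0.48 on the log2 scale in each. With the shift of the whole chromosome taken out of each line, the log2 fold change of *Prkcd* was -0.13. The same step left *Prkch* at 1.63 (limma adjusted p = 0.000777), *Rasgrp1* at 2.02 (adjusted p = 0.227) and *Prkca* at -0.95 (adjusted p = 0.244), although in DKO241 chromosome 11, which holds *Prkca* and *Nf1*, was raised by 0.47, and that line had the highest *Prkca* of the DKO group.

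Neither of the 2 diacylglycerol kinases was called. *Dgka* (chromosome 10) encodes the calcium-sensitive kinase DGKα that is high in resting T cells. It was the most variable of the 10 genes, with lowest, median and highest levels of 3.23, 28.5 and 108 CPM in DKO and 1.10, 29.3 and 214 CPM in E2a-/- lines. The lowest line was the library labelled SKO132 and the highest SKO115.2, both E2a-/-, and the log2 fold change of -0.26 had a 95% interval from -2.29 to 1.76 (SE 0.95, limma adjusted p = 0.948), so that a large difference in either direction could not be told from none. *Dgkz* (chromosome 2), which encodes DGKζ, the isoform that restrains Ras in T cells, was more even between lines. It had levels of 265, 399 and 566 CPM in DKO and 265, 351 and 515 CPM in E2a-/- lines, with a log2 fold change of 0.047 (SE 0.16, 95% interval -0.30 to 0.39, limma adjusted p = 0.946).

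*Sos1* (chromosome 17) and *Nf1* (chromosome 11), whose products switch Ras on and off without diacylglycerol, had log2 fold changes near 0. *Sos1* had lowest, median and highest levels of 38.3, 67.6 and 89.7 CPM in DKO and 63.7, 72.7 and 86.6 CPM in E2a-/- lines, with a log2 fold change of -0.13 (SE 0.16, 95% interval -0.47 to 0.21, limma adjusted p = 0.813). *Nf1* had levels of 35.6, 93.0 and 116 CPM in DKO and 59.3, 97.1 and 122 CPM in E2a-/- lines, and its log2 fold change was -0.087 (SE 0.25, 95% interval -0.62 to 0.45, limma adjusted p = 0.931). For both genes the lowest line was DKO170.2, which was also the lowest DKO line for *Rasgrp1*.

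The differences of *Prkch* and *Rasgrp1* were set against those of their neighbors in the pathway, with the difference in log2(CPM + 1) between a pair of genes in each line. A total of 8 pairs was tested with two-sided exact permutation tests and Benjamini-Hochberg adjustment over the 8, and 7 had an adjusted p under 0.05. This cut-off is looser than the 0.01 used over all genes, at which *Prkch* with *Prkcb* and *Rasgrp1* with *Dgkz* would not pass. Both *Prkch* and *Rasgrp1* had been picked on these same lines, so these p-values are not independent of that choice. A ratio over a gene that differs little between the groups largely returns the difference of *Prkch* or *Rasgrp1* itself. Most pairs could therefore pass whatever the second gene was. Ratios over genes outside the pathway were not computed, so the number of pairs that passed does not show a difference particular to these neighbors. A rise of a ratio does not change that *Rasgrp1* itself was not called. *Prkch* relative to *Prkca* rose by 2.47 on the log2 scale from E2a-/- to DKO lines (SE 0.30), and relative to *Prkcd* by 1.88 (SE 0.25). In both of these pairs all 8 DKO lines lay above all 7 E2a-/- lines, which gave the smallest possible exact p of 0.000155 and an adjusted p of 0.000414. *Prkch* relative to *Prkcq* rose by 1.84 (SE 0.43, exact permutation adjusted p = 0.00274), with 7 DKO lines above the E2a-/- range. *Prkch* relative to *Prkcb* rose by 1.18 (SE 0.39, exact permutation adjusted p = 0.0160), the least of the 4 pairs, and *Prkcb* was itself somewhat higher in DKO lines.

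*Rasgrp1* relative to *Sos1* rose by 2.12 (SE 0.64), and here the groups did not overlap, with 1.75 to 3.97 in DKO and -2.72 to 1.65 in E2a-/- lines (exact permutation adjusted p = 0.000414). DKO170.2, the DKO line that overlapped for *Rasgrp1* itself, was low for *Sos1* as well and so fell among the DKO lines in this ratio. *Rasgrp1* relative to *Nf1* rose by 2.08 (SE 0.77, exact permutation adjusted p = 0.00274) and relative to *Dgkz* by 1.95 (SE 0.80, exact permutation adjusted p = 0.0206). *Rasgrp1* relative to *Dgka* rose by 2.26 (SE 1.17, exact permutation adjusted p = 0.0648) and did not pass. The E2a-/- values of this last ratio ran from -1.87 in SKO95 to 5.74 in the library labelled SKO132, where *Dgka* was nearly silent, and without SKO132 the difference was 2.94 with an adjusted p of 0.0148. Without SKO137.1 it was 2.58 with an adjusted p of 0.0450.

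**Figure D2:**
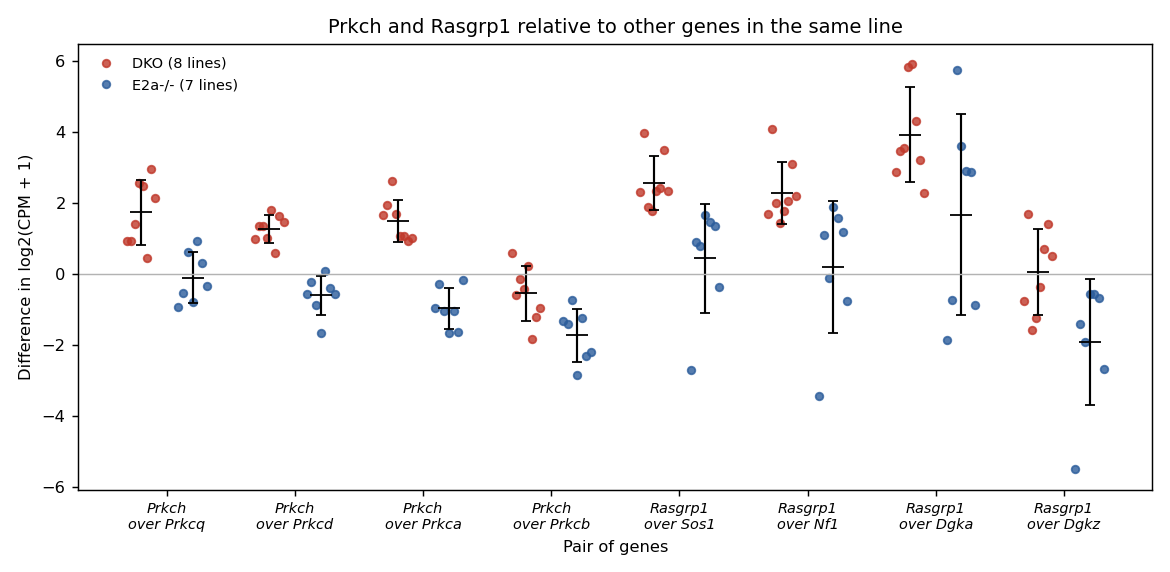
Difference in log2(CPM + 1) between pairs of genes in the same line, with a point per line, DKO in red (8 lines) and E2a-/- in blue (7 lines), and black bars for the mean and SD of each group. The groups are apart for *Prkch* over *Prkcd*, *Prkch* over *Prkca* and *Rasgrp1* over *Sos1*, and overlap most for *Rasgrp1* over *Dgka*, where E2a-/- lines run from -1.87 to 5.74.

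Levels of different genes were compared per kilobase of exon. Among the 6 listed diacylglycerol-responsive PKC genes, *Prkch* made up 26.9 ± 6.19% of the summed CPM per kb in DKO lines (SD, n = 8, range 15.1% to 35.2%) and 10.7 ± 2.85% in E2a-/- lines (SD, n = 7, range 5.77% to 14.3%). The share of *Prkca* was 8.22 ± 3.16% in DKO and 18.1 ± 5.77% in E2a-/- lines, and that of *Prkcd* 15.1 ± 3.89% and 22.1 ± 5.24%. *Prkcb* held the largest mean share in both groups, 39.5 ± 11.5% and 35.5 ± 9.43%. It was the top PKC gene in 6 DKO and 6 E2a-/- lines, whereas *Prkch* was the top one in DKO79.9 and DKO241, and *Prkcd* in the library labelled SKO132. *Prkcq* took 9.62 ± 5.20% and 12.9 ± 5.92%, and *Prkce*, encoding PKC-ε, under 1% on average in each group. The sum over the 6 genes was 85.7 ± 13.7 CPM per kb in DKO and 69.9 ± 11.5 CPM per kb in E2a-/- lines. These shares are descriptions and were not tested beyond the ratios above.

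**Figure D3:**
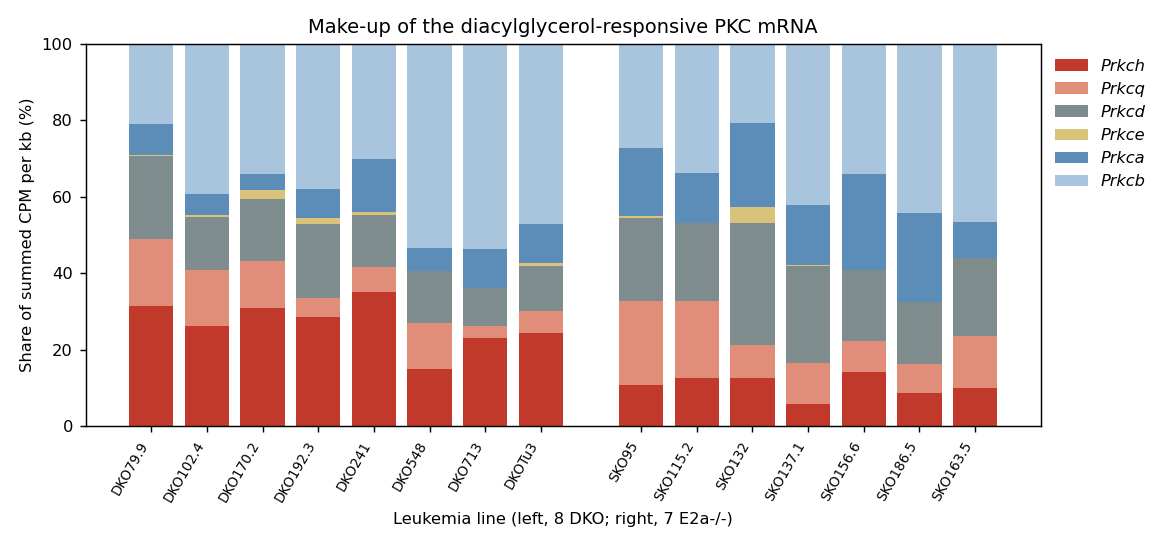
Share of each of the 6 listed diacylglycerol-responsive PKC genes in their summed CPM per kb of exon, as stacked bars to 100%, for the 8 DKO lines (left) and the 7 E2a-/- lines (right). The *Prkch* block (red) is between 15.1% and 35.2% in DKO lines and between 5.77% and 14.3% in E2a-/- lines, and *Prkcb* (pale blue) is the largest block in 12 of the 15 lines.

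Among the 5 listed Ras exchange factors, *Rasgrp1*, *Rasgrp2*, *Rasgrp4*, *Sos1* and *Sos2*, *Rasgrp1* made up 79.7 ± 10.2% of the CPM per kb in DKO lines (SD, n = 8) and 45.7 ± 28.9% in E2a-/- lines (SD, n = 7). It was the top exchange factor in 8 of 8 DKO lines and in 4 of 7 E2a-/- lines. In SKO115.2 and SKO163.5 the top one was *Rasgrp4*, a family member best known from mast cells, at 267 and 299 CPM, where no other line was above 14.7 CPM. In SKO95, the line with *Rasgrp1* at 10.3 CPM, it was *Rasgrp2*, which activates the related GTPase Rap1, at 97.1 CPM. The E2a-/- lines with the lowest *Rasgrp1* were SKO95 and SKO163.5, and the latter had the highest *Rasgrp4*. Across the groups, the log2 fold change of *Rasgrp4* was -1.63 (SE 1.09, limma adjusted p = 0.631, DESeq2 adjusted p = 0.0153) and that of *Rasgrp2* 0.36 (SE 0.42, limma adjusted p = 0.798). *Rasgrp3* was not analysed here.

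Of the diacylglycerol kinases, 7 of 10 were listed. Per kb, *Dgkz* held 53.8 ± 14.2% of their summed level in DKO and 53.3 ± 7.15% in E2a-/- lines, and *Dgkd*, encoding DGKδ, 30.0% (range 17.0% to 49.6%) and 29.7% (range 21.8% to 36.8%). *Dgkz* was the top kinase in 6 DKO lines and all 7 E2a-/- lines, and *Dgkd* in DKO548 and DKO713. The summed level was 119 ± 16.9 CPM per kb in DKO and 114.7 ± 22.0 CPM per kb in E2a-/- lines. The kinase gene with the lowest p was *Dgkg*, encoding the calcium-sensitive isoform DGKγ, a minor one here. *Dgkg* had lowest, median and highest levels of 0.206, 11.5 and 49.5 CPM in DKO lines and 0, 0.269 and 3.47 CPM in E2a-/- lines. In 7 of 8 DKO lines *Dgkg* was above every E2a-/- line, and the exception, DKO79.9, was under the floor of 3 reads. Its log2 fold change was 3.17 (SE 0.66, limma adjusted p = 0.0740, DESeq2 adjusted p = 3.02e-04, edgeR adjusted p = 0.125), so limma did not call it. Without DKO79.9, the shallowest line, it was called, with a log2 fold change of 3.66 and a limma adjusted p of 0.00293. *Dgkd*, *Dgke*, *Dgkh* and *Dgkq* had log2 fold changes between -0.21 and 0.49, and none passed a test.

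**Figure D4:**
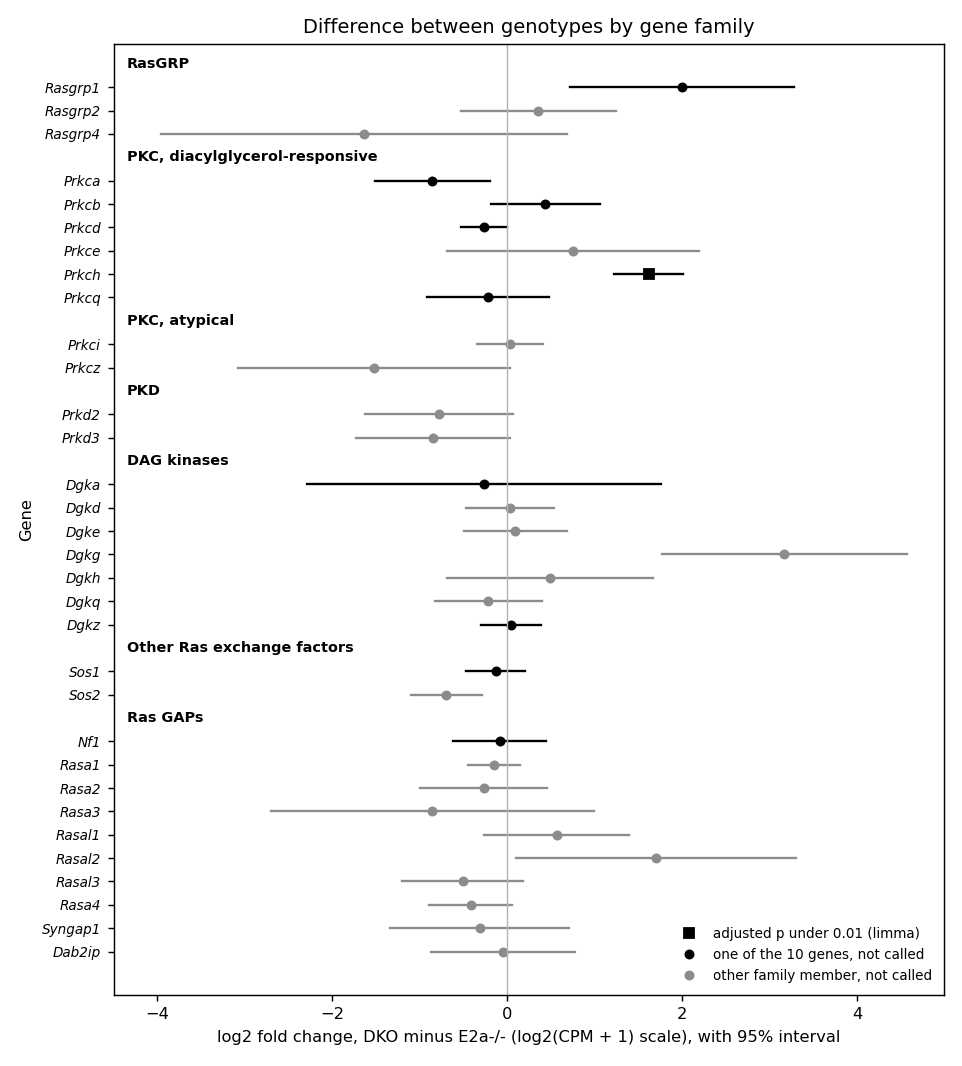
Log2 fold change from limma, DKO minus E2a-/-, on the log2(CPM + 1) scale, with 95% intervals, for the listed genes of the RasGRP, PKC, protein kinase D, diacylglycerol kinase, Ras exchange factor and Ras GTPase-activating protein families, with the 10 genes in black and other members in grey. The square marks *Prkch*, the only gene shown with an adjusted p under 0.01, and the intervals of *Rasgrp1*, *Dgkg* and *Rasal2* are also above 0 while those of *Prkca* and *Sos2* are below.

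The wider pathway was examined as 14 lists with 114 genes, of which 92 were listed. *Prkch* was the only one of the 92 with a limma adjusted p under 0.01, and 8 of 92 (8.70%) had an unadjusted p under 0.05, 5 higher and 3 lower in DKO lines, beside the 10.2% of all genes. The median log2 fold change of the 92 was -0.075. DESeq2 called 5 of the 92 (5.43%, beside 1.41% of all genes), *Prkch*, *Dgkg*, *Rasal2* and *Phlda1* higher and *Dusp6* lower. *Sos2*, the second SOS exchange factor, averaged 27.4 ± 8.76 CPM over the 8 DKO lines and 43.8 ± 8.51 CPM over the 7 E2a-/- lines (SD), and 6 DKO lines were below every E2a-/- line. Its log2 fold change was -0.69 (SE 0.19, limma adjusted p = 0.179). *Rasal2*, a Ras GTPase-activating protein gene, was at 18.7, 28.9 and 13.9 CPM in DKO102.4, DKO713 and DKOTu3 and at most 1.02 CPM in every other line (limma adjusted p = 0.463, DESeq2 adjusted p = 7.53e-04). The first 2 of these lines were also the highest for *Rasgrp1*, and DKOTu3 was the third. *Phlda1*, a gene induced by ERK signaling, had lowest, median and highest levels of 9.48, 117 and 185.7 CPM in DKO and 7.78, 29.3 and 51.9 CPM in E2a-/- lines, for a log2 fold change of 1.59 (SE 0.55, limma adjusted p = 0.324, DESeq2 adjusted p = 0.00515).

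By list, the RasGRP family (3 of 4 genes listed) had a median log2 fold change of 0.36 and the diacylglycerol-responsive PKC genes (6 of 7) one of 0.11. The atypical PKC genes *Prkci* and *Prkcz* (2 of 2) had a median of -0.75 and the protein kinase D genes *Prkd2* and *Prkd3* (2 of 3), whose products act downstream of PKC, one of -0.82. In both of these pairs no gene passed, with unadjusted limma p of 0.870 for *Prkci*, 0.0547 for *Prkcz*, 0.0670 for *Prkd2* and 0.0578 for *Prkd3*. The medians were -0.094 for other C1-domain proteins (3 of 6), 0.047 for the diacylglycerol kinases (7 of 10), 0.095 for phospholipase C (6 of 14) and -0.41 for the non-RasGRP exchange factors (2 of 4). They were -0.21 for Ras GTPase-activating proteins (10 of 10), 0.14 for Ras GTPases (6 of 6), -0.074 for the RAF-MEK-ERK kinases (8 of 8), -0.12 for ERK-induced genes (17 of 20) and -0.051 for the adaptors upstream of diacylglycerol (9 of 9). Upstream of the family, *Plcg1*, encoding phospholipase C-γ1, was at 185.6 ± 41.6 CPM in DKO (SD, n = 8) and 211 ± 64.0 CPM in E2a-/- lines (SD, n = 7), with a limma adjusted p of 0.801.

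Of the 17 listed ERK-induced genes, 6 (*Dusp6*, *Spry4*, *Spred2*, *Etv4*, *Etv5* and *Cd69*) had their 3 highest levels in the same 3 E2a-/- lines, SKO95, SKO115.2 and SKO163.5, and the other 11 did not. *Dusp6*, which encodes a phosphatase that switches ERK off, was at 163.9 CPM in SKO95, 109.7 CPM in SKO115.2 and 61.7 CPM in SKO163.5, and at most 8.45 CPM in the other 12 lines. These 3 lines had *Etv5*, a transcription factor gene induced by ERK, at 379.9, 401 and 196 CPM, where no other line was above 88.4 CPM. They also held the 3 highest levels of *Spry4*, a feedback inhibitor of Ras signaling, at 9.95, 33.6 and 25.2 CPM, with at most 0.483 CPM elsewhere (limma adjusted p = 0.462). Among the other 11, *Egr1* was highest in DKO713 at 36.8 CPM and at 1.84 CPM in SKO95, *Nr4a1* was highest in DKO79.9 at 34.2 CPM and at 0.184 CPM in SKO95, and *Phlda1* was highest in DKO713 at 185.7 CPM and at 27.8 to 29.3 CPM in the 3 lines. In SKO95, SKO115.2 and SKO163.5 *Rasgrp1* was at 10.3, 128 and 63.8 CPM, and the value of SKO115.2 is the median of the E2a-/- lines. The library labelled SKO132 had *Rasgrp1* at 111 CPM, below SKO115.2, with *Dusp6* at 1.65 CPM, *Etv5* at 10.4 CPM and *Spry4* at 0. A relation between *Rasgrp1* and these genes was not tested. The 2 DKO lines with the highest *Rasgrp1*, DKO102.4 and DKO713, had the highest *Etv5* of the DKO group, at 71.3 and 88.4 CPM, and the highest *Dusp4*, at 42.6 and 124 CPM. They were also the highest DKO lines for *Egr1*, *Fos*, *Cd69*, *Phlda1* and, near the floor, *Etv4*. Other genes of the list went otherwise. Among DKO lines *Dusp5*, *Dusp6*, *Ier3*, *Nr4a1* and *Spred1* were highest in DKO79.9, and *Spry1* and *Ier2* in DKO170.2. These lines were picked out after their values were seen, and no test was made between them.

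**Figure D5:**
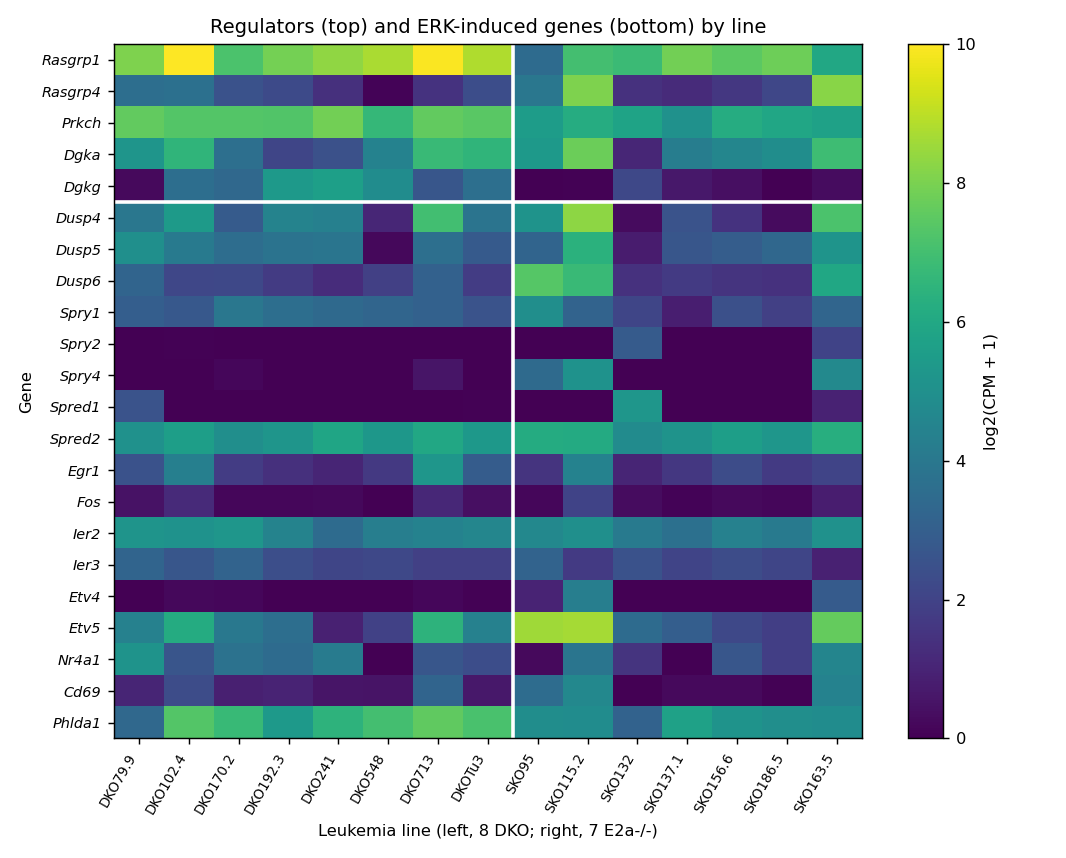
Heat map of log2(CPM + 1) for *Rasgrp1*, *Rasgrp4*, *Prkch*, *Dgka* and *Dgkg* (above the horizontal line) and the 17 listed ERK-induced genes (below it) in the 8 DKO lines (left of the vertical line) and the 7 E2a-/- lines (right). *Prkch* is brighter in every DKO line, whereas *Dusp6*, *Spry4*, *Etv4* and *Etv5* are brightest in SKO95, SKO115.2 and SKO163.5.

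Within a genotype, no relation between the levels of *Rasgrp1* and *Prkch* was detectable with this number of lines. Pearson's r of log2(CPM + 1) was 0.020 over the 8 DKO lines (Spearman's rho 0.095, exact permutation p = 0.965 and 0.840) and 0.18 over the 7 E2a-/- lines (rho 0.14, exact permutation p = 0.676 and 0.783). Across 5 pairs of genes in 2 genotypes, 10 correlations were computed, and none passed Benjamini-Hochberg adjustment at 0.05. The highest in DKO lines was that of *Rasgrp1* with *Dgka* (r = 0.73, exact permutation p = 0.0430, adjusted p = 0.215, rho = 0.81, p = 0.0218, adjusted p = 0.160), and r was 0.46 without the 2 lines farthest from the median of *Rasgrp1*. *Rasgrp1* with *Dgkz* gave r = -0.58 in DKO (rho -0.76, exact permutation p = 0.132 and 0.0368) and r = -0.80 in E2a-/- lines (rho -0.79, exact permutation p = 0.0329 and 0.0480, adjusted p = 0.215 and 0.160). Without the 2 lines farthest from the median, the latter r was -0.45, and the former -0.68. For *Prkch* with *Prkcq* r was -0.29 and -0.076 in DKO and E2a-/- lines, and for *Dgka* with *Dgkz* -0.60 and -0.073.

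Over all 15 lines, the genes most like *Prkch* in log2(CPM + 1), among the 9707 genes whose mean was 5 CPM or more, were *B4galt4* (r = 0.88), *Mixl1* (0.84), *Tbx21* (0.81), *Myo10* (0.81) and *Gli1* (0.81). Once each genotype was centred on its own mean, r fell to 0.66 for *B4galt4*, 0.44 for *Mixl1*, 0.14 for *Tbx21*, 0.092 for *Myo10* and 0.38 for *Gli1*, so much of the likeness was the shared difference between genotypes. Those most like *Rasgrp1* were *Tspan2* (r = 0.87), *Irf4* (0.86), *Stat5a* (0.85), *Tcf7* (0.85) and *Ydjc* (0.84). Here r stayed at 0.77, 0.80, 0.74, 0.73 and 0.73 after centring, so the likeness was also present between lines of one genotype. These are descriptions over 15 lines that share the genotype groups, and the highest of so many values are high in part by selection.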

How the data were processed

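RNA-sequencing libraries from 8 DKO and 7 E2a-/- leukemia lines were analysed, 1 per line. From the methods and processing notes, the authors trimmed reads with Trimmomatic (0.33), aligned them to mm10 with TopHat2 (2.1.0), counted them per gene with HTSeq (0.6.1) and scaled them with edgeR. The deposited values are CPM. How the 12545 genes were selected is not given in the sources used here. Division of each value by the smallest non-zero value in the same line gave whole numbers (tolerance 0.01) for 100% of the values in each line, and these reads were used for the count tests. The labels give no batch and no pairing. Intervals and floors cover counting error only where they rest on reads.

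Here, limma (3.58.1, R 4.3.3) was fitted to log2(CPM + 1) of all genes with a trend of the variance. Fold changes are on that scale and are understated for low genes. Exact permutation tests were run in Python (3.11.15), and edgeR (4.0.16) and DESeq2 (1.42.0) on the recovered reads. Coordinates and exon lengths are from GENCODE M21 (GRCm38), matched by gene ID, because 190 of 12172 genes in the table's own coordinates started within 1 base of GRCm38. The shift of a chromosome is the median, over its genes averaging 5 CPM or more, of the log2 value minus the gene's median over lines, relative to all autosomal genes. The alternatives were pseudocounts of 0.1 and 2, median-of-ratios scaling, chromosome shifts removed, a minimum mean of 1 CPM, no variance trend, the count tests, an adjusted p under 0.05, SKO156.6 and SKO186.5 (alike in earlier results) averaged, and each line left out. By chi-square per degree of freedom on the recovered reads, where lower means more alike, SKO156.6 with SKO186.5 had 57.8. The pair SKO137.1 with SKO156.6 had 55.7 and was not averaged. Scripts were tested on simulated data.

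The genes named are the 10, *Lef1* and *Tcf3*, listed relatives of the RasGRP, PKC and diacylglycerol kinase families, pathway genes with an adjusted p under 0.01 or, up to 6 per direction, an unadjusted p under 0.05, and the 5 genes most like *Prkch* and *Rasgrp1*. *Dusp4*, *Dusp5*, *Dusp6*, *Spred1*, *Spred2*, *Spry1*, *Etv4*, *Etv5*, *Cd69*, *Egr1*, *Fos*, *Ier2*, *Ier3*, *Nr4a1* and *Plcg1* were added after their values were seen. The result of 1 list is not reported here. The 10 genes and the lists were chosen with earlier results of these data known.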

Additional observations from a re-analysis of the deposited data

Results flagged for a closer look

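Among the 34 comparisons of a gene within a genotype, 6 had a line far from the others by Dixon's test on log2(CPM + 1). At 1 in 20, about 1.7 would be expected if the values were independent and normally distributed. That does not hold here, because some of these genes were near 0 and 4 of the 6 came from 1 library. Some genes had also been named for their p in these data, so an excess over chance was not shown. *Rasgrp1* was at 10.3 CPM in SKO95, while the other E2a-/- lines were at 63.8 to 231 CPM. The library labelled SKO132 stood apart from the other E2a-/- lines for 4 genes. It had *Lef1* at 59.0 CPM (others 668 to 1558), *Phlda1* at 7.78 CPM (others 27.8 to 51.9), *Dgkg* at 3.47 CPM (others 0 to 0.560) and *Rasal2* at 0.441 CPM (others 0 to 0.161). *Spry4* was at 0.483 CPM in DKO713, while the other DKO lines were at 0 to 0.128 CPM.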

How the results depend on the processing

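*Prkch* was called in all 25 alternatives, with log2 fold changes of 1.501 to 1.72 and adjusted p of 5.89e-14 to 0.00490, and *Rasgrp1* in none, with 1.47 to 2.20 and 0.0143 to 0.404. The number of the 10 genes called was 1 throughout. Over all genes, 6 were called, against 3 with SKO156.6 and SKO186.5 averaged, 1 with edgeR, 177 with DESeq2 and 19 at an adjusted p under 0.05. Leaving out each line in turn gave 3 to 17, the highest without the library labelled SKO132, and 10 without DKO79.9, the shallowest line. In the 14 lists DESeq2 called 5 genes, and leaving out each line gave 1 to 2, the latter without DKO79.9. Of 250 values for the 10 genes, 242 kept their direction and their side of the threshold, and 8 changed sign, all of genes that were not called. *Dgka* ran from -0.92 to 0.20 with each line left out, *Dgkz* from -0.036 to 0.12 and was at -0.0020 with SKO156.6 and SKO186.5 averaged, and *Nf1* ran from -0.17 to 0.079. The ratio of *Rasgrp1* over *Dgka* ran from 1.67 to 2.94 with each line left out. The correlation of *Dgka* with *Dgkz* in E2a-/- lines was 0.017 with median-of-ratios scaling. *Lef1* (log2 fold change -2.33, adjusted p = 0.0980) was called by DESeq2 (-2.72) and without SKO132 (-2.91, adjusted p = 4.88e-06). The causes were not tested. Depth limits values under 0.138 to 0.618 CPM, which are not told apart from 0. No paired analysis was possible because the line names share no number between the genotypes.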
